A study of Mus musculus with 27 samples.

Results

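The NF-κB family was followed at the level of 10 genes: the 5 subunits Rela, Relb, Rel, Nfkb1 and Nfkb2, the 3 cytoplasmic IκB inhibitors Nfkbia, Nfkbib and Nfkbie, and the nuclear IκB proteins Bcl3 and Nfkbiz. They were chosen by name, as the subunits and inhibitors of the pathway, from the 22524 genes counted in each of 27 RNA sequencing libraries. Earlier results of these data were known when they were chosen. All 10 were found by their Ensembl identifiers, and all 10 passed the filter on low counts in each of the 9 comparisons.

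NF-κB subunits bind DNA as dimers. In resting cells, IκB proteins hold dimers of RelA, c-Rel and p50 in the cytoplasm, and a cytokine such as tumour necrosis factor (TNF) activates the IKK kinase, which marks IκBα for degradation and releases the dimers to the nucleus. Nfkb1 and Nfkb2 encode the precursors p105 and p100, which act as inhibitors themselves and are processed to p50 and p52, and RelB pairs with p52 in the slower non-canonical branch. IκBα (Nfkbia), p100, RelB and Bcl-3 are among the members of the family that are themselves known products of NF-κB target genes. The pathway thus feeds back on its own parts, and in the gut epithelium it is known for inflammatory gene expression and cell survival.

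Small intestinal epithelial organoids were grown from jejunal crypts of 9 male adult C57BL/6 mice, 3 littermates each from the facilities SR and SE (specific and opportunistic pathogen-free, SPF) and from germ-free isolators (GF), in Matrigel with Intesticult medium. Each organoid culture gave 1 library labelled untreated and 1 labelled as treated with murine TNF (5 ng/mL, 8 hr), as did each of 3 cultures of the immortalised murine small intestinal cell line m-ICc12, while 3 libraries came from mouse embryonic fibroblasts (MEFs) without TNF. The study asked how much the microbiota of the donor, TNF and the type of culture each shape expression.

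In all 12 cultures with a pair of libraries, the data as deposited are named for the opposite treatment to that on the sample label: the library labelled untreated holds data whose name ends in T, the mark that the study uses for TNF. The labels were followed here, every group is called by its label, and each difference within a culture is the level in the library labelled untreated minus that in the library labelled TNF-treated. The study reports that TNF raised the protein of Nfkb2 in organoids, while Nfkb2 RNA was higher in the organoid libraries labelled untreated. Of 13 known NF-κB target genes tested in organoids, 8 were called higher under the label untreated and 0 lower. Differences by label are therefore not to be read as the direction of a TNF effect, nor levels under the label untreated as resting levels. Which of the 2 sources is right was not tested.

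The libraries held between 6071103 and 43843615 counts on genes, so that 3 counts, taken as the floor of detection, correspond to 0.0684 to 0.494 CPM (counts per 1000000 counts on genes). The shallowest library was that of m-ICc12 culture M1 labelled TNF-treated. The summed level of 5 general epithelial markers (Epcam, Cdh1, Krt8, Krt18 and Krt19) was 5352 to 6351 CPM in the organoid libraries labelled untreated, 1561 to 2131 CPM in the m-ICc12 libraries with this label and 16.1 to 18.6 CPM in MEFs. In m-ICc12 cells this sum came from Krt8 (1138 to 1585 CPM) and Krt18 (414 to 634 CPM). The third keratin, Krt19, was at 0.600 to 2.66 CPM, against 1221 to 1518 CPM in organoids and 7.43 to 10.6 CPM in MEFs. Epcam was at 2.06 to 6.81 CPM, against 883 to 1108 CPM in organoids. The 10 intestinal markers summed to 18.8 to 49.2 CPM, against 2518 to 3873 CPM in organoids. Epcam, Cdh1 (0.936 to 1.81 CPM), Krt19 and the intestinal markers other than Vil1 were thus nearly absent from the m-ICc12 libraries. Vil1 was at 17.3 to 41.1 CPM in these, against 602 to 1030 CPM in organoids and 0.878 to 1.83 CPM in MEFs. Vim was at 1841 to 3002 CPM in the m-ICc12 libraries and the macrophage receptor gene Csf1r at 64.5 to 107 CPM. Yet 4 of 7 fibroblast markers and 4 of 6 immune markers were at or under the floor there. Among these fibroblast markers, Thy1 was at 0 CPM in MEFs too, and Pdgfra was at only 0.115 to 1.57 CPM in MEFs. The endothelial marker Kdr was at 4.12 to 7.97 CPM in the m-ICc12 libraries, against at most 0.0318 CPM in organoids and 0.376 CPM in MEFs. The part of these differences in the results on m-ICc12 cells was not tested. In organoids labelled untreated, the 7 fibroblast markers summed to 13.9 to 32.4 CPM, the 6 immune markers to 1.43 to 15.5 CPM and the 3 endothelial markers to at most 0.597 CPM.

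Sequence upstream of the transcription start is shown first, because 4 of the 7 members with a promoter entry in RefSeq (build GRCm38.p6) hold a match to the NF-κB consensus within 250 bases before a start. The consensus was searched on both strands, and 7.25% of 32851 RefSeq promoter windows of this length hold at least 1 match. The 4 members are Nfkb2, Rel, Nfkbia and Nfkbie, while the windows of Rela, Nfkbib and Bcl3 hold none. Nfkb1, Relb and Nfkbiz have no entry. A match is a description of letters and not evidence of binding.

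The whole window is given for both members whose window lies outside annotated exons, 5′ to 3′ on the strand of the gene, with the match in capitals. That of Nfkbia lies at chr12:55492648-55492897 on the minus strand and its match begins 29 bases before the start. That of Nfkbie lies at chr17:45555450-45555699 on the plus strand, with the match 106 bases before the start.
Nfkbia: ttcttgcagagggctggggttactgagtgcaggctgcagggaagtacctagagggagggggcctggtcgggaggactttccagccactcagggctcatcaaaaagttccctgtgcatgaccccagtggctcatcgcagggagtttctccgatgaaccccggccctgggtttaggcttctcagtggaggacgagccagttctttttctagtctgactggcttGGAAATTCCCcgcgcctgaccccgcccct
Nfkbie: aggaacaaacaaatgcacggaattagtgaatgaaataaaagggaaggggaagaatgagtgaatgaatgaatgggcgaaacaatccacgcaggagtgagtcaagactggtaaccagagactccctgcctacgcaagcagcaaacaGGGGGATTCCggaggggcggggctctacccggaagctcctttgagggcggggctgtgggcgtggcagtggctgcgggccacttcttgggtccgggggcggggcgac

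For Nfkb2 and Rel, whose windows touch exons, only the match with its neighbouring bases is given. Nfkb2 has 3 annotated starts with a window, and each window holds a match. The stretches shown, each with the match in its middle, lie at chr19:46304688-46304717 for its window 1 and at chr19:46305695-46305724 for its window 3, both on the plus strand, and at chr11:23771042-23771071 on the minus strand for Rel.
Nfkb2, window 1: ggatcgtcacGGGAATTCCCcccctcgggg
Nfkb2, window 3: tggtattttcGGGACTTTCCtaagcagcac
Rel: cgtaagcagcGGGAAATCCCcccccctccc
The first of the Nfkb2 matches and that of Rel are matched on both strands, and a second match begins 1 base further on in each. Window 1 of Nfkb2 holds a further match 11 bases before the start, which is not shown. Below, Nfkb2 and Nfkbia differed between the labels in organoids, Nfkbie did so in m-ICc12 cells, and Rel in neither, so that a match in the window was found in members of each kind.

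Within organoids labelled untreated, levels per length were compared between genes as RPKM, the TMM-normalised CPM divided by the kilobases of exon. Nfkbia stood highest at 122 ± 16.8 RPKM (SD, n = 9), and its range did not overlap that of the next gene, Nfkb2, at 24.9 ± 3.97 RPKM. Then followed Relb (24.4 ± 2.98 RPKM), Bcl3 (19.5 ± 5.33 RPKM), Rela (18.3 ± 3.22 RPKM), Nfkbib (14.9 ± 4.02 RPKM), Nfkb1 (8.80 ± 0.896 RPKM) and Nfkbiz (6.79 ± 1.99 RPKM), each overlapping in range with its neighbours. Rel (2.91 ± 0.508 RPKM) and Nfkbie (2.04 ± 0.678 RPKM) formed the low end, and the range of Rel lay below that of Nfkbiz. Of the 9 neighbouring pairs in this order, 7 overlapped. In CPM, which does not divide by length, Nfkb1 moved from position 7 to position 3.

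The order differed between cultures. In MEFs, Rela stood first at 37.4 ± 2.02 RPKM (SD, n = 3), followed by Nfkb2 (25.4 ± 2.12 RPKM) and Nfkbia (25.4 ± 2.83 RPKM), and Bcl3 was last at 0.141 ± 0.104 RPKM. In m-ICc12 cells labelled untreated, Nfkbia (54.0 ± 14.8 RPKM, n = 3) was followed by Rela (32.8 ± 5.65 RPKM) and Nfkb2 (27.8 ± 2.81 RPKM), and Relb (7.02 ± 0.504 RPKM) and Rel (2.31 ± 0.582 RPKM) came last. In m-ICc12 cells labelled TNF-treated, Rela (27.04 ± 1.25 RPKM) stood above Nfkbia (12.1 ± 2.60 RPKM), and the ranges of these 2 genes did not overlap.

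**Figure D1:**
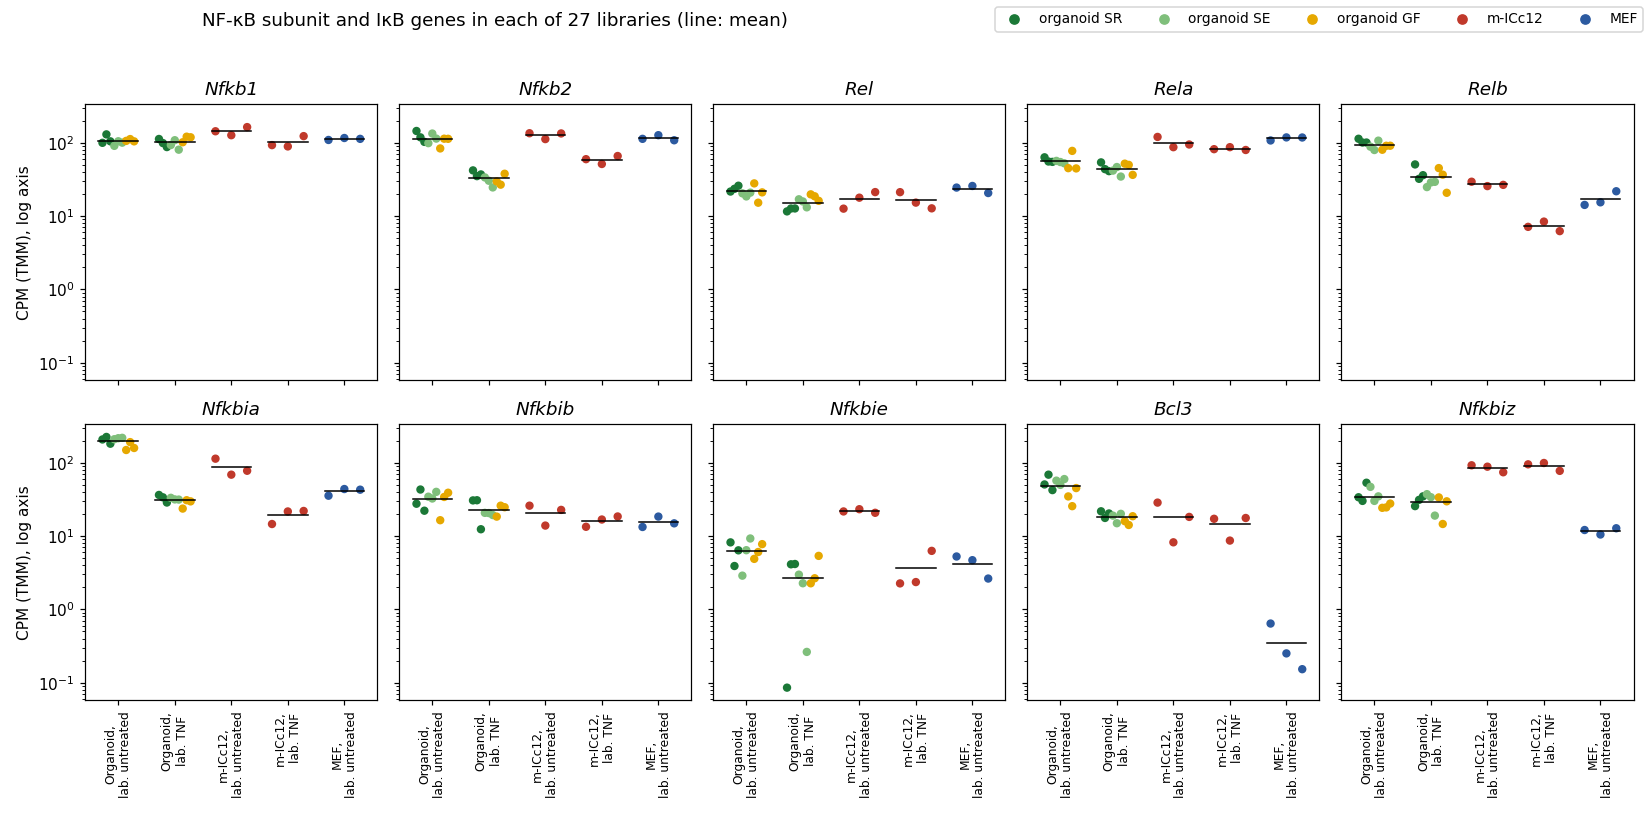
Level of each of the 10 genes in every library, as TMM-normalised CPM on a log axis, by culture and label (lab.: labelled), with 1 point per library coloured by origin and a line at the group mean. Nfkb2, Relb, Nfkbia and Bcl3 in organoids lie higher in all 9 libraries labelled untreated than in any labelled TNF-treated, and Bcl3 in MEFs stays between 0.153 and 0.641 CPM.

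The libraries of the 2 labels were then compared in organoids, with edgeR's quasi-likelihood F-test over 12104 genes. A gene was called at an adjusted p under 0.05. Nfkbia, Nfkb2, Relb and Bcl3 were higher in the libraries labelled untreated, and none of the 10 members was called lower. These 4 of 10 compare with 1.39% of all genes tested that were called in either direction and 1.26% that were called higher. The members were chosen with earlier results of these data known, and the study names Nfkb2 and Relb among its TNF target genes. The share of members called, here and in m-ICc12 cells below, is therefore a description and not independent evidence. The study also reports more Nfkb2 protein in organoids after TNF, whereas Nfkb2 RNA was higher here under the label untreated. The median log2 difference was 0.86 over the members and 0.00 over all genes.

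Nfkbia encodes IκBα, the inhibitor that is degraded and resynthesised after IKK activation. It had 150, 208 and 226 CPM as the lowest, median and highest value of the 9 organoid libraries labelled untreated, and 23.7, 31.5 and 36.4 CPM in those labelled TNF-treated. All values of the first group lay above all of the second, and the log2 difference within a culture varied only between 2.42 (Z919) and 2.80 (Z913). It had the smallest p of all 12104 genes.

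Nfkb2 encodes p100, the precursor of p52 and an inhibitor of RelB. Its levels were 83.9, 114 and 145 CPM (lowest, median and highest) in the libraries labelled untreated and 24.6, 33.8 and 42.1 CPM in those labelled TNF-treated. The groups did not overlap, and the log2 difference within a culture lay between 1.48 and 2.21.

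Relb encodes the partner of p52 and p100. It was at 79.8, 91.3 and 114 CPM (lowest, median and highest) under the label untreated and at 20.8, 32.3 and 50.8 CPM under the label TNF-treated. The groups were separate here too, but the difference varied more between cultures, from 0.83 in Z917 to 2.13 in Z919, both of them GF cultures.

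Bcl3 encodes a nuclear IκB protein that binds p50 and p52 homodimers. It was at 25.6, 50.03 and 68.9 CPM (lowest, median and highest) under the label untreated and at 14.2, 18.7 and 21.8 CPM under the label TNF-treated. The lowest library of the first group, that of GF culture Z918, was still above the highest of the second, that of SR culture Z908. The log2 difference was 1.42 (SE 0.15, adjusted p = 8.6e-07 with edgeR), and it was positive in 9 of 9 cultures.

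The other 6 members did not pass the adjusted threshold in organoids, although for 4 of them (Rel, Rela, Nfkbib and Nfkbie) the unadjusted p was under 0.05. Of all 12104 genes tested, 1072 (8.86%) had an unadjusted p under 0.05. Rel, the c-Rel subunit best known from lymphocytes, had a log2 difference of 0.51 (SE 0.15, adjusted p = 0.12 with edgeR) and was higher under the label untreated in 8 of 9 cultures. DESeq2 called it, with an adjusted p of 0.046. In the 3 SR cultures Rel was at 21.7, 23.6 and 26.0 CPM under the label untreated and at 11.6, 12.7 and 12.7 CPM under the label TNF-treated. The ranges were also separate in the SE cultures, and they overlapped in the GF cultures. In SE, the lowest library labelled untreated was at 18.6 CPM and the highest labelled TNF-treated at 16.97 CPM. Such separation was not particular to Rel, as it held for 6 members in SR, 7 in SE and 4 in GF cultures. The share of all genes separate within a facility was not counted. The difference between the labels was not called for Rel between GF and SPF cultures (GF minus SPF −0.43, SE 0.31, unadjusted p = 0.18 with edgeR).

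Rela encodes the main transactivating subunit p65. Its log2 difference was 0.34 (SE 0.11, adjusted p = 0.21 with edgeR), positive in 8 of 9 cultures, with levels of 44.8 to 77.7 CPM under the label untreated and 34.7 to 54.1 CPM under the other. Nfkb1, the gene of p105 and p50, had the smallest difference of the 10, at 0.05 (95% interval −0.11 to 0.22). It was higher under the label untreated in 4 of 9 cultures, with 90.98 to 130 CPM and 80.7 to 121 CPM. Both precursor genes, Nfkb1 and Nfkb2, were thus at about the same CPM under the label untreated, but only Nfkb2 was called between the labels.

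Nfkbib encodes IκBβ. Its log2 difference was 0.51 (SE 0.18, adjusted p = 0.27 with edgeR), and with the culture as a block it was called, with an adjusted p of 0.042. The pairs of libraries come from the same mouse, so that this blocked value uses the pairing of the design, and it moved the number of members called from 4 to 5. Nfkbie encodes IκBε and was the least expressed member, at 2.89 to 9.28 CPM under the label untreated. Under the label TNF-treated it was at 3 counts (0.0855 CPM) in SR culture Z908 and at 7 counts (0.263 CPM) in SE culture Z913, and at 2.27 to 5.37 CPM in the other 7 cultures. Its log2 difference of 1.21 (SE 0.49, adjusted p = 0.41 with edgeR) carried the largest error of the 10. Nfkbiz encodes IκBζ, a nuclear coactivator of secondary response genes, and differed by 0.24 (95% interval −0.11 to 0.59), with 5 of 9 cultures higher under the label untreated.

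In organoids, 4 members had ranges that did not overlap between the 9 libraries of each label, the same 4 that were called, against 0.396% of 14132 genes that were separate in this direction. As the RNA came from whole cultures, fewer cells that express a gene and less RNA per cell cannot be told apart. The general epithelial markers summed to 5522 to 6296 CPM under the label TNF-treated and the intestinal markers to 2019 to 2551 CPM, while the latter were at 2518 to 3873 CPM under the label untreated. Among the intestinal markers, the stem cell marker Olfm4 had a median of 792 CPM under the label untreated and 183 CPM under the label TNF-treated, whereas Vil1 had 665 and 717 CPM, Lgr5 155 and 167 CPM and Fabp2 158 and 157 CPM. The part of this shift in the results was not tested.

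**Figure D2:**
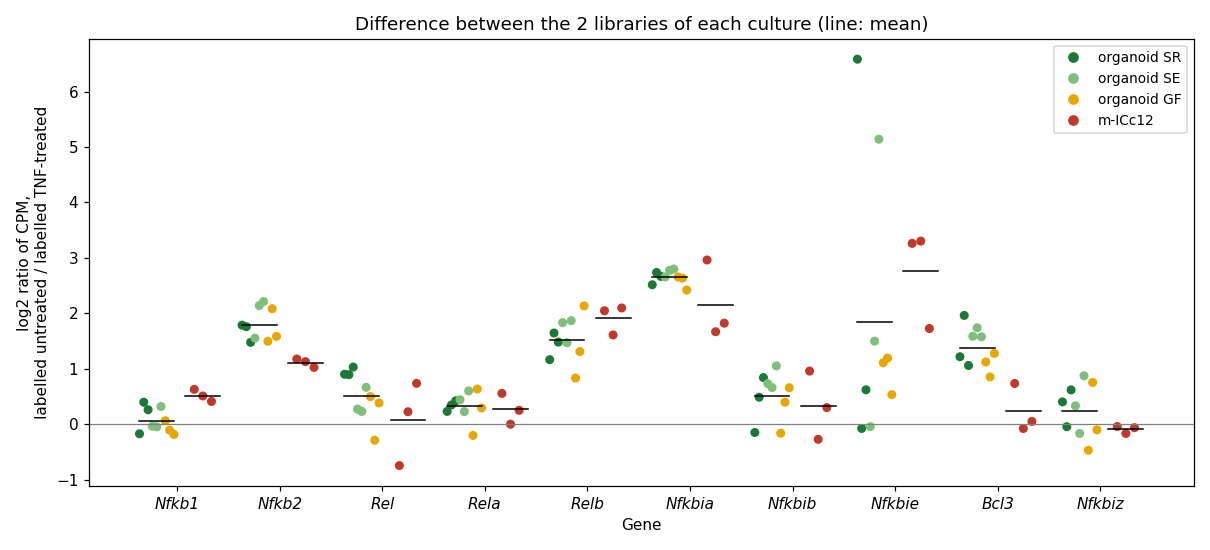
Log2 ratio of CPM between the 2 libraries of each culture (labelled untreated over labelled TNF-treated) for the 10 genes, with 9 organoid cultures on the left and 3 m-ICc12 cultures on the right of each gene, coloured by origin, and a line at the mean. The organoid points of Nfkbia lie between 2.42 and 2.80, while those of Nfkbie reach 6.59 in Z908 and 5.14 in Z913, where the library labelled TNF-treated holds 3 and 7 counts.

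The same comparison in m-ICc12 cells had 3 libraries per label, and edgeR called 4 of 10 members, all higher in the libraries labelled untreated: Nfkbia, Relb, Nfkb2 and Nfkbie. Of 11861 genes tested, 0.11% were called in either direction and 0.0927% were called higher. The median log2 difference was 0.42 over the members and 0.01 over all genes. Nothing in the labels or methods says that the m-ICc12 or MEF cultures were of separate origin, so that the p-values involving them measure the spread between these samples, which may be technical.

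Nfkbia was at 114, 68.9 and 77.9 CPM in cultures M1, M2 and M3 labelled untreated and at 14.6, 21.7 and 22.04 CPM under the label TNF-treated. M1 was the highest in the one group and the lowest in the other, and the library of M1 labelled TNF-treated was also the shallowest. Relb was at 29.5, 25.7 and 26.7 CPM against 7.14, 8.42 and 6.24 CPM, and the deviation between cultures was small beside the gap between the labels. Nfkb2 was at 135, 112 and 134 CPM against 59.9, 51.5 and 66.1 CPM, so that the groups were again separate.

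Nfkbie was at 21.7, 23.3 and 20.8 CPM in M1, M2 and M3 labelled untreated and at 2.26, 2.36 and 6.29 CPM in the same cultures labelled TNF-treated. This was the largest log2 difference of the 10 in m-ICc12 cells, 2.54 (SE 0.41, adjusted p = 0.016 with edgeR), and the lowest library rested on 13 counts. With all 27 libraries in 1 fit its adjusted p was 0.49, and in that fit all groups, the organoids included, share 1 estimate of the spread. Without culture M3, the number of members called fell to 2, as Nfkb2 and Relb both had an adjusted p of 0.083 with edgeR, with log2 differences of 1.14 and 1.80.

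The remaining 6 members were not called in m-ICc12 cells. Nfkb1 had a log2 difference of 0.49 (SE 0.18, adjusted p = 0.99 with edgeR) and was higher under the label untreated in 3 of 3 cultures, at 144, 127 and 164 CPM against 93.1, 89.4 and 123 CPM. Bcl3 varied between cultures more than between labels, with 28.7, 8.23 and 18.3 CPM in M1, M2 and M3 labelled untreated and 17.2, 8.69 and 17.7 CPM in those labelled TNF-treated. Nfkbiz had a difference of −0.11 (95% interval −0.45 to 0.23), and those of Rel, Rela and Nfkbib were 0.07, 0.27 and 0.34. Ranges were separate for 5 members, Nfkb1 with the 4 called, against 4.82% of 14132 genes in this direction.

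Whether the difference between the labels itself differed between m-ICc12 cells and organoids was tested as an interaction over 13183 genes, of which 0.159% were called. With edgeR, 0 members were called, 4 had an unadjusted p under 0.05 (Nfkb1, Nfkb2, Nfkbia and Bcl3, against 857 of all genes), and DESeq2 called 0 as well. The interaction of Bcl3 was −1.07 (95% interval −1.86 to −0.28, adjusted p = 0.56 with edgeR), that of Nfkb2 −0.68 (95% interval −1.10 to −0.26, adjusted p = 0.38) and that of Nfkbie 1.37 (95% interval −0.43 to 3.17, adjusted p = 0.92). The calls of Bcl3 in organoids and of Nfkbie in m-ICc12 cells are therefore not shown to differ between the 2 cultures.

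Between GF and SPF organoids, the interaction with the label gave 0 calls among the members and 0.0% of 12640 genes with edgeR, while DESeq2 called 0 members and 1 gene. Of all genes, 323 had an unadjusted p under 0.05, and of the members 0. The member estimates ran from −0.56 for Nfkbie (95% interval −2.64 to 1.52) to −0.09 for Rela (95% interval −0.58 to 0.39). For Nfkbia the interval was −0.45 to 0.20 and for Relb −0.75 to 0.38. The mean difference between the labels within a culture was 2.64, 2.74 and 2.57 for Nfkbia in the SR, SE and GF cultures, 1.67, 1.97 and 1.72 for Nfkb2, 1.43, 1.72 and 1.43 for Relb, and 1.41, 1.63 and 1.08 for Bcl3.

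In levels under the label untreated, 0 members were called between GF and SPF organoids with edgeR or DESeq2, against 0.0325% of 12315 genes with edgeR, and the estimates ran from −0.65 for Bcl3 to 0.03 for Nfkb1. An unadjusted p under 0.05 was found for 3 members, Nfkbia, Bcl3 and Nfkbiz, all with lower estimates in GF, and for 491 of all genes tested. Bcl3 was at 34.8, 25.6 and 45.2 CPM in the 3 GF cultures and at 42.4 to 68.9 CPM in the 6 SPF cultures, so that the groups overlapped. Nfkbia was at 150, 192 and 159 CPM in GF and at 182 to 226 CPM in SPF cultures, again with an overlap. Nfkbiz was at 24.3, 24.7 and 27.8 CPM in GF and at 30.2 to 53.5 CPM in SPF cultures, and these ranges did not overlap. Those of the libraries labelled TNF-treated did (14.6 to 33.7 CPM in GF and 19.0 to 37.4 CPM in SPF cultures). The share of all genes separate between GF and SPF cultures under the label untreated was not counted. Between the SPF facilities SE and SR, edgeR and DESeq2 called 0 members, edgeR called 0.0% of 12219 genes, of which 486 had an unadjusted p under 0.05, and the member estimates ran from −0.25 for Rel to 0.20 for Nfkbib, with 0 members at an unadjusted p under 0.05.

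Levels were next compared between the types of culture, using the libraries labelled untreated. The 3 comparisons share libraries with each other, and the share of all genes called was high in each, 60.9% of 12962 genes between organoids and m-ICc12 cells, 67.2% of 13144 between organoids and MEFs and 59.3% of 12830 between m-ICc12 cells and MEFs. In organoids against m-ICc12 cells, 7 of 10 members were called, 3 higher and 4 lower, where 31.6% of all genes were higher and 29.3% lower. Against MEFs, 6 members were called in organoids, 5 higher (34.6% of all genes) and 1 lower (32.6%), and 5 in m-ICc12 cells, 5 higher (28.1%) and 0 lower (31.2%). The counts of members called in either direction lie near the shares of all genes and are no result about the members. By direction they lie further off, such as 5 higher and 0 lower in m-ICc12 cells against MEFs. With only 10 members, this is not read as a result either. The same comparisons were also made with the libraries labelled TNF-treated, and the values with these libraries are given where they changed a call.

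Relb was higher in organoids than in both other cultures. It was at 94.9 ± 11.6 CPM (SD, n = 9) in organoids, 27.3 ± 1.96 CPM (n = 3) in m-ICc12 cells and 17.2 ± 4.10 CPM (n = 3) in MEFs. Organoids were higher than m-ICc12 cells by 1.82 on the log2 scale (SE 0.14, adjusted p = 1.2e-08 with edgeR) and higher than MEFs by 2.48 (SE 0.17, adjusted p = 2.3e-09 with edgeR). With the libraries labelled TNF-treated, the differences were 2.22 and 0.99 and both were called. The excess of m-ICc12 cells over MEFs, 0.62, turned to −1.24 with those libraries and lost its call without any of the cultures M1, M3, R1 or R2.

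Rela went the other way. It was at 56.2 ± 9.90 CPM (SD, n = 9) in organoids, 101 ± 17.4 CPM (n = 3) in m-ICc12 cells and 115 ± 6.20 CPM (n = 3) in MEFs. Organoids were lower than m-ICc12 cells (log2 difference −0.82, SE 0.15, adjusted p = 0.00022 with edgeR) and lower than MEFs (−1.02, SE 0.14, adjusted p = 1.0e-05 with edgeR), and both calls were also made with the libraries labelled TNF-treated, at −0.90 and −1.37. Between m-ICc12 cells and MEFs the difference of −0.24 was not called (adjusted p = 0.18 with edgeR), but it was called with the libraries labelled TNF-treated (−0.47, adjusted p = 0.011) and without culture M1 (−0.37, adjusted p = 0.044).

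Bcl3 was close to the floor in MEFs, with 0.641, 0.251 and 0.153 CPM, which are 27, 10 and 4 counts. Organoids exceeded MEFs by 7.04 on the log2 scale (SE 0.46, adjusted p = 1.1e-09 with edgeR) and m-ICc12 cells exceeded them by 5.60 (SE 0.61, adjusted p = 5.0e-06 with edgeR), and these sizes rest on those few counts. Organoids were above m-ICc12 cells by 1.42, a call that was not made with the libraries labelled TNF-treated (0.32, adjusted p = 0.26 with edgeR).

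Nfkbiz was highest in m-ICc12 cells, at 85.2 ± 9.59 CPM (SD, n = 3), lower in organoids at 34.1 ± 9.98 CPM (n = 9) and lowest in MEFs at 11.8 ± 1.17 CPM (n = 3). The 3 differences were −1.30, 1.54 and 2.80 for organoids against m-ICc12 cells, organoids against MEFs and m-ICc12 cells against MEFs, all called, and all 3 were called in the same direction with the libraries labelled TNF-treated (−1.66, 1.29 and 2.94). It was the only member called in all 3 comparisons in the same direction under both labels.

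For Nfkbia the choice of label decided the result against MEFs. Organoids labelled untreated were above MEFs (40.8 ± 4.56 CPM, SD, n = 3) by 2.28, and those labelled TNF-treated were below them by 0.39 on the log2 scale (−0.39, adjusted p = 0.019 with edgeR). In m-ICc12 cells the corresponding values were 1.04 and −1.06. Organoids were above m-ICc12 cells under both labels, by 1.19 and 0.66.

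Nfkb2 was at 114, 127 and 116 CPM on average in organoids, m-ICc12 cells and MEFs and was not called in any of the 3 comparisons. With the libraries labelled TNF-treated it was lower in organoids than in m-ICc12 cells by 0.84 and than in MEFs by 1.81 (−0.84 and −1.81, adjusted p = 0.00019 and 3.9e-09 with edgeR), and it was lower in m-ICc12 cells than in MEFs (−0.98, adjusted p = 0.00040 with edgeR). Nfkb1 lay between 90.98 and 164 CPM in all libraries labelled untreated, and was lower in organoids than in m-ICc12 cells by 0.43 on the log2 scale (−0.43, SE 0.11, adjusted p = 0.0033 with edgeR), a difference of 0.01 with the libraries labelled TNF-treated. Without culture M3 this call was lost as well (−0.32, adjusted p = 0.054 with edgeR). Between m-ICc12 cells and MEFs, Nfkb1 differed by 0.31 (adjusted p = 0.068 with edgeR) and was called with DESeq2 (0.34, adjusted p = 0.038), with RLE normalization (0.34, adjusted p = 0.0498), with all 27 libraries in 1 fit (0.36, adjusted p = 0.046) and without culture M2 (0.39, adjusted p = 0.028).

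Nfkbie was higher in m-ICc12 cells labelled untreated, at 21.9 ± 1.26 CPM (SD, n = 3), than in organoids (6.20 ± 2.06 CPM, n = 9) and MEFs (4.20 ± 1.39 CPM, n = 3), with differences of −1.80 for organoids against m-ICc12 cells and 2.33 for m-ICc12 cells against MEFs. Neither was called with the libraries labelled TNF-treated, where they were −0.45 and −0.19. Nfkbib was higher in organoids than in MEFs (1.06, SE 0.27, adjusted p = 0.0025 with edgeR), again not with the other label (0.54, adjusted p = 0.061). Its difference of 0.65 between organoids and m-ICc12 cells was not called (adjusted p = 0.055 with edgeR), but was called without Z910, Z917 or M1 (0.69, 0.73 and 0.84), and that of 0.38 between m-ICc12 cells and MEFs was called without M2 (0.60, adjusted p = 0.0498).

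Rel was at 12.6 to 27.97 CPM over all libraries labelled untreated and was called in none of the 3 comparisons with these. With the libraries labelled TNF-treated it was lower in organoids, at 15.3 ± 2.89 CPM (SD, n = 9), than in MEFs, at 23.7 ± 2.67 CPM (n = 3), with a log2 difference of −0.63 (SE 0.20, adjusted p = 0.0094 with edgeR), against −0.11 under the label untreated. Its difference of −0.50 between m-ICc12 cells and MEFs was called without culture M3 (−0.69, adjusted p = 0.045 with edgeR).

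**Figure D3:**
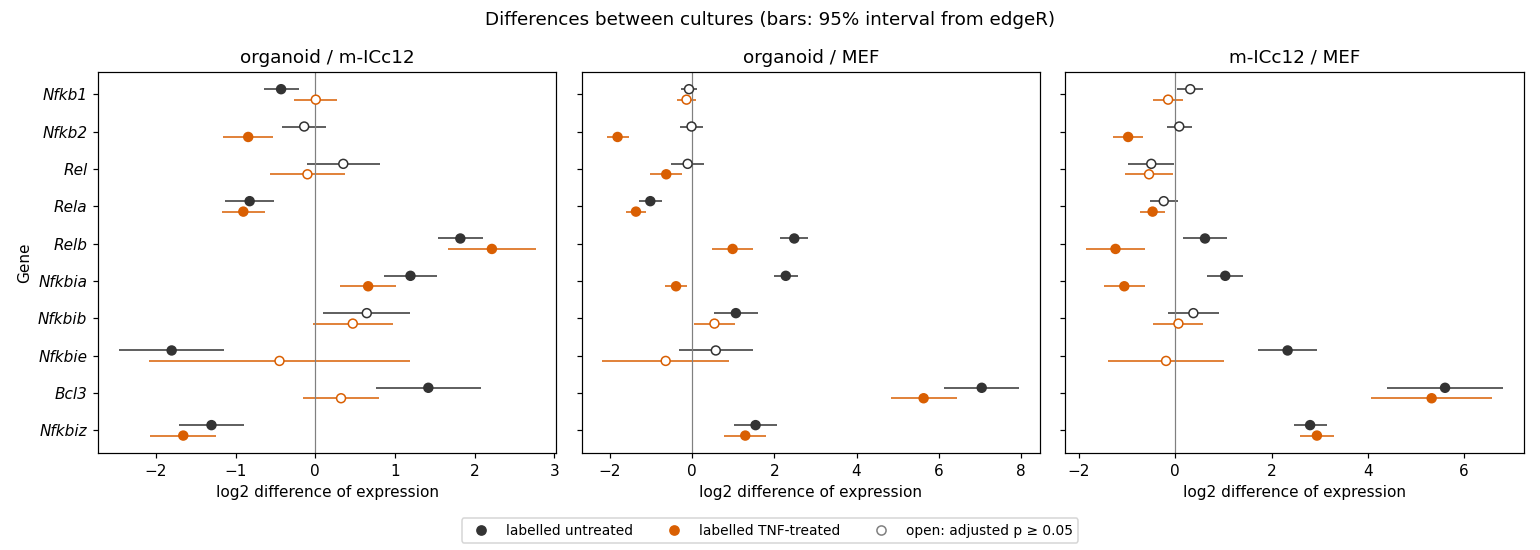
Log2 difference of expression between the types of culture for the 10 genes, with the libraries labelled untreated in grey and those labelled TNF-treated in orange for organoids and m-ICc12 cells, 95% intervals as bars and filled points for an adjusted p under 0.05. Rela, Relb and Nfkbiz in the 2 organoid panels keep their side of 0 under both labels, while Nfkbia changes side in both panels against MEFs.

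Ratios of members within a library do not depend on the scaling of libraries. Nfkbia per kilobase was 4.71 to 7.96 times Rela per kilobase in organoids labelled untreated (median 6.80), and 0.872 to 1.73 times in those labelled TNF-treated (median 1.33). In m-ICc12 cells this ratio was 1.80, 1.51 and 1.57 in M1, M2 and M3 labelled untreated and 0.340, 0.474 and 0.526 in those labelled TNF-treated, and in MEFs it was between 0.630 and 0.706. The organoid groups did not overlap with each other or with MEFs.

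The ratio of the precursor genes, Nfkb2 to Nfkb1 per kilobase, was 2.08 to 3.82 in organoids labelled untreated and 0.583 to 1.11 in those labelled TNF-treated. It was 2.16 to 2.47 and 1.41 to 1.69 in m-ICc12 cells and 2.52 to 2.87 in MEFs. Only the organoids labelled TNF-treated had libraries with less Nfkb2 than Nfkb1 per length. Relb to Rela was 0.928 to 1.61 in organoids labelled untreated, 0.450 to 0.742 in those labelled TNF-treated, and at most 0.233 in any m-ICc12 or MEF library, so that organoids under either label stood apart from both.

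**Figure D4:**
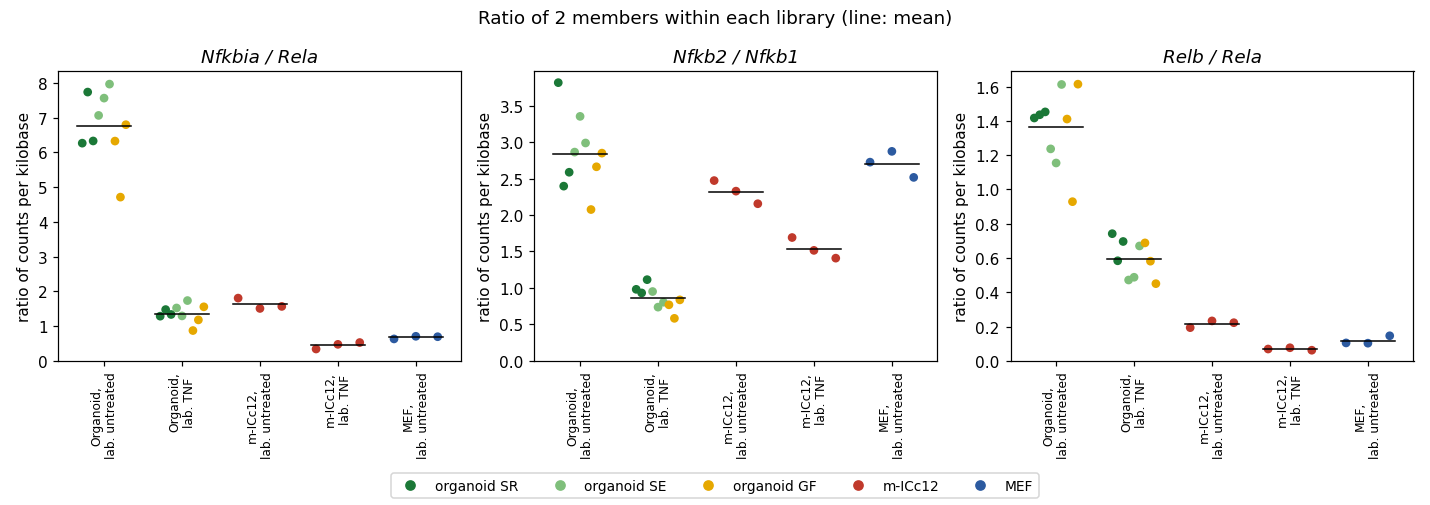
Ratio of counts per kilobase of 2 genes within each library, for Nfkbia to Rela, Nfkb2 to Nfkb1 and Relb to Rela, by culture and label (lab.: labelled), with 1 point per library coloured by origin and a line at the mean. The Nfkbia to Rela ratio of organoids labelled untreated (4.71 to 7.96) lies above that of every other library, and the Relb to Rela ratio of organoids under both labels lies above all m-ICc12 and MEF libraries.

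Other genes of the pathway were taken from lists. Of 20 genes between the TNF receptor and IKK, edgeR called 1 higher and 0 lower under the label untreated in organoids, Traf3 (log2 difference 0.57, SE 0.12, adjusted p = 0.0066), a regulator of the kinase NIK. The gene of NIK itself, Map3k14, had 0.68 (adjusted p = 0.15, edgeR) and the deubiquitinase Cyld 0.43 (adjusted p = 0.21, edgeR). The median of the list was −0.01. In m-ICc12 cells 0 of 20 were called with a median of 0.11, the smallest p being those of Traf2 (0.80, adjusted p = 0.36, edgeR), Traf3 (0.55, adjusted p = 0.87) and Tab3 (0.35, adjusted p = 1.0).

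Of 21 known NF-κB target genes, 13 passed the filter in organoids and 8 of these were called higher under the label untreated and 0 lower, with a median of 1.54. They included Tnfaip3 (A20), a deubiquitinase that limits the pathway (1.54, SE 0.12, adjusted p = 3.5e-09 with edgeR), its partner Tnip1 (0.95, SE 0.10, adjusted p = 8.6e-07) and the complement gene C3. In m-ICc12 cells 18 passed the filter and 5 were called, all higher, with a median of 1.68, among them the chemokine genes Ccl2 (5.34, SE 0.46, adjusted p = 4.8e-05 with edgeR) and Cxcl1 (1.83, SE 0.20, adjusted p = 0.00040) and C3 (2.13, SE 0.19, adjusted p = 4.8e-05). Some of these targets are named by the study for these samples, so that the list is not independent evidence of a direction. Of 7 related genes (NFAT factors and other IκB-like genes), 0 of the 6 tested were called in organoids and 0 of 7 in m-ICc12 cells with edgeR. The atypical IκB gene Nfkbid had a difference of 0.88 in organoids (adjusted p = 0.14, edgeR), while Nfatc2 and Nfat5 had −0.84 and −0.16. In m-ICc12 cells Nfat5, Nfatc3 and Nfatc4 had −0.23, −0.20 and 1.38.

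The genes whose log2 CPM followed each member most closely over the 18 organoid libraries were sought among 14131 others. These libraries fall into the 2 labels and come in pairs from 9 mice, so that the coefficients are given as a description. Nfkb2 was followed by Mreg (Pearson's r = 0.979), Nfkbia (0.976) and Cyba (0.974), and Nfkbia by the class I-like gene H2-M2 (0.977), Nfkb2 and Mreg. Relb was followed by Cyba (0.951), Zyx (0.942) and Reg3g (0.939), and Bcl3 by Nfkbia (0.928), Zyx (0.923) and Nfkb2 (0.915). For the 6 members not called in organoids the highest coefficients were lower, between 0.750 (Rela with Aplp2) and 0.863 (Nfkbib with Mfsd13a), and the nearest genes were Ubb for Nfkb1, Iffo2 for Rel, Cog3 for Nfkbie and 1600002K03Rik for Nfkbiz.

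Within a label the members followed each other less. Nfkb2 and Nfkbia had r = 0.98 over all 18 organoid libraries, but 0.62 over the 9 labelled untreated and 0.32 over the 9 labelled TNF-treated. Relb and Nfkbia had 0.93, 0.42 and −0.11, and Bcl3 and Nfkbia 0.93, 0.61 and 0.37. The coefficients within a label rest on 9 libraries each.

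The position of the members in the genome bears on their counts in 2 cases. Exons of Nfkb2 (chromosome 19, 46304320 to 46312385, plus strand, GRCm38) share 299 bases with exons of Psd on the opposite strand. Exons of Nfkbib (chromosome 7, 28758251 to 28767512, minus strand) overlap those of 2 counted genes. The larger of these overlaps is 314 bases with Ccer2 on the opposite strand. The use of strand in counting is not stated in the sources used here, so that reads from shared bases may have been given to the member or to the other gene. Relb (19606217 to 19629438) and Bcl3 (19808462 to 19822770) lie on the minus strand of chromosome 7, as does Nfkbib, and Rela (5637483 to 5648130) lies on chromosome 19 with Nfkb2.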

How the data were processed

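RNA was sequenced as single-end reads from poly-A-enriched libraries, made with a kit that the labels call stranded and the paper's methods do not. The authors trimmed the reads with Trimmomatic, aligned them to GRCm38 (Ensembl) with STAR and counted them per gene, and deposited whole-number counts without normalization. The paper names GenomicRanges for counting, while the submitters' processing notes list featureCounts and STAR 2.5.4b. Counts that overlap between genes or strands are treated in ways not given in the sources used here.

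Groups were taken from the sample labels. Levels are CPM (counts scaled to 1000000 per library) after TMM normalization, and RPKM divides these by the exon length in GENCODE vM21, in which 22214 of 22524 genes were matched. Each comparison used only the groups compared, genes that reached 10 counts in 50% or more of a group's libraries, edgeR 4.0.16 (quasi-likelihood F-test, R 4.3.3) and Benjamini-Hochberg adjustment over all genes tested. Tests were checked on simulated data with independent libraries, without the pairing of cultures. The limit on false calls in that check was not applied to DESeq2. The 2 libraries of an organoid culture come from 1 mouse, and their deviations from the group means correlated with r = 0.0609 to 0.235 (9 pairs). No 2 libraries of a group agreed within sampling noise. All 10 members are named, and of each list the 3 genes with the smallest p in either comparison of labels, and the 3 genes nearest to each member by r. The members and lists were chosen with earlier results of these data known. Alternatives were DESeq2 1.42.0, RLE normalization, all genes with at least 1 count, all 27 libraries in 1 fit, a block for the culture, a covariate for the facility, the other label and leaving out each culture. Summaries and plots used pandas 2.3.3, numpy 2.4.6 and matplotlib 3.10.9 in Python 3.11.15. The floor of 3 counts covers counting error only.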

Additional observations from a re-analysis of the deposited data

How the results depend on the processing

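The number of members called was within 1.5 times its main value in 122 of 124 alternatives. Comparisons without any called member count among these 122, and a like number can hold other members or the other direction. The 2 exceptions were in m-ICc12 cells, where 4 members were called between the labels. With the replicate block 1 was called (Nfkbia), and without single cultures the number ran from 2 (without M3) to 4. The m-ICc12 cultures share only a number (r = -0.0008 to 0.0926 between the libraries of a pair, 3 pairs), so that this block is not a pairing by design. In organoids the block called 5 members and 397 genes, against 4 and 168, and changed no other call of a member. Of 790 member differences, 15 were reversed. With the libraries labelled TNF-treated, organoids against m-ICc12 cells gave 0.0065 for Nfkb1 and −0.10 for Rel, organoids against MEFs −0.39 for Nfkbia and −0.64 for Nfkbie, and m-ICc12 cells against MEFs −0.15 for Nfkb1, −0.98 for Nfkb2, −1.24 for Relb, −1.06 for Nfkbia and −0.19 for Nfkbie. Rel between the labels in m-ICc12 cells ran from −0.27 to 0.48 without single cultures, and Nfkb2 in organoids against MEFs from −0.093 to 0.058, both around 0 and not called. The cause was not tested.

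Counts over all genes moved by more than 1.5 times in the small comparisons. Between the labels in m-ICc12 cells, 13 genes became 46 with DESeq2, 30 without the filter, 29 with all 27 libraries, 6 with the block and 93 without M2. The interaction of m-ICc12 cells and organoids went from 21 to 71, 6 and 103 with DESeq2, all libraries and the block, to 11 without M2 and to 40 without M3, that of GF and SPF from 0 to 1 with DESeq2. Between GF and SPF, 4 became 21 with DESeq2, 29 with all libraries and 2 without any 1 of the GF cultures, and between SE and SR, 0 became 8 with DESeq2, 5 without the filter, 2 with all libraries, 1 with RLE or the other label, and up to 35 without Z909. Members below about 10 CPM, such as Nfkbie, and the library of M1 with 6071103 counts limit what could be detected.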
